A study of Homo sapiens with 5 samples.

Results

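The genes described here were 10 members of the YAP and TEAD pathway, namely YAP1, WWTR1, TEAD1, TEAD2, TEAD3, TEAD4, CCN1, CCN2, AMOTL2 and WWC1, out of 19689 protein-coding genes of the annotation. They were chosen by name, because ACTL6A has been tied to WWC1 and YAP in other carcinomas, and not by a filter on their values. Earlier results of these libraries were known when the genes were chosen. A peak belonged to a gene when it shared at least 1 bp with the annotated gene extended by 10 kb to each side (GENCODE release 44, GRCh38, positions counted from 1). Binding was profiled by CUT&Tag, in which a Tn5 transposase fused to protein A is brought to an antibody and cuts adapters into the DNA beside it. All 5 libraries came from SNU638, an established human gastric cancer cell line, for which the labels name no genetic change and no treatment. The antibodies were anti-ACTL6A (an actin-like subunit of the BAF chromatin remodelling complex and of other complexes), anti-BRG1 (the ATPase of that complex), anti-NRF2 (a transcription factor of antioxidant genes) and IgG as the control antibody, with 2 IgG libraries named IgG 1 and IgG 2 here. None of the 3 specific antibodies was replicated, which leaves no spread between libraries to compare with, and no p-value was computed.

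YAP1 and TAZ, the product of WWTR1, are transcriptional coactivators that do not bind DNA by themselves. The Hippo kinases phosphorylate them and hold them in the cytoplasm, and when this brake is released they enter the nucleus and join the TEAD factors, which recognise the letters CATTCC in DNA. CCN1, CCN2 and AMOTL2 are widely used readouts of YAP and TEAD activity, and WWC1 encodes the scaffold protein KIBRA, which acts upstream with the Hippo kinases.

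The libraries gave 48793 BRG1 peaks, 23917 ACTL6A peaks and 9045 NRF2 peaks, and the IgG libraries 11 (IgG 1) and 1746 (IgG 2). The lists hold no reads, so the precision of a peak was read from the number of fragments at its summit, a whole number recovered from the deposited fold enrichment and p-value. Median peaks had 10 fragments in the BRG1 list, 6 in the ACTL6A list and 17 in the NRF2 list, and a rank here means the place of a peak in its own list by q-value. Ranks, folds and fragments were not compared as amounts of binding between antibodies, since the libraries differ in depth and antibody. As a check of the labelled line, a BRG1 peak lay within 1 kb of a transcription start site (TSS) in 5 of 5 epithelial marker genes and in 0 of 6 markers of blood, endothelial and muscle cells. In the gene with 10 kb to each side, BRG1 peaks lay over 5 of 5 and 6 of 6. The region count thus did not separate the 2 marker lists.

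All 10 genes carried BRG1 peaks, 8 carried ACTL6A peaks and 5 carried NRF2 peaks. In all, 58 BRG1 peaks, 18 ACTL6A peaks and 6 NRF2 peaks lay over the 10 genes. Across all protein-coding genes, 82.7% held a BRG1 peak in the same kind of region, 66.9% an ACTL6A peak and 41.1% an NRF2 peak, so the shares with a peak of any kind were near those of genes in general. The ACTL6A list had no peak over CCN1 or AMOTL2, and the NRF2 list had none over TEAD1, TEAD3, TEAD4, CCN2 or WWC1. The regions of CCN1 (23.8 kb) and AMOTL2 (40.1 kb) are short. Of all genes with regions up to 50 kb, 59.3% held an ACTL6A peak. With 50 kb to each side, all 10 genes had an ACTL6A peak. Neither IgG library had a peak over any of the 10 genes, beside 1.67% of all genes for IgG 2 and 0.0356% for IgG 1, and no peak of the 3 antibodies over these genes overlapped an IgG peak anywhere.

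**Figure D1:**
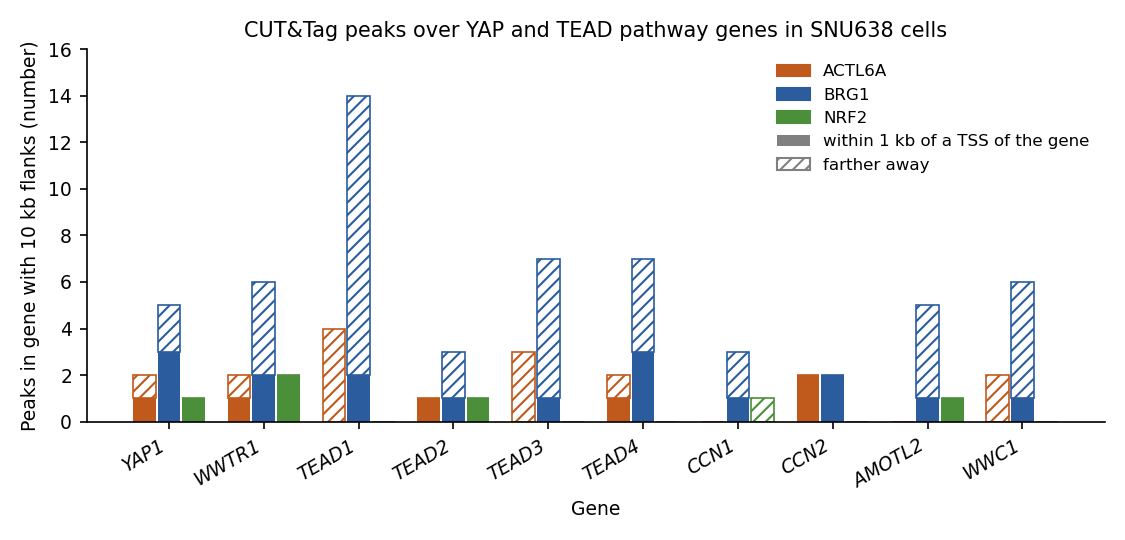
Number of peaks in each gene with 10 kb to each side, for the ACTL6A, BRG1 and NRF2 libraries (1 library each); filled bars are peaks within 1 kb of a protein-coding TSS of that gene and hatched bars are peaks farther away. BRG1 peaks were present over all 10 genes, with the most (14) over TEAD1, and CCN1 and AMOTL2 had no ACTL6A peak.

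At the TSS the lists differed more. A BRG1 peak lay within 1 kb of a protein-coding TSS in 10 of 10 genes, beside 63.5% of all genes. An ACTL6A peak did so in 5 of 10 (YAP1, WWTR1, TEAD2, TEAD4 and CCN2), beside 38.5% of all genes, and an NRF2 peak in 4 of 10 (YAP1, WWTR1, TEAD2 and AMOTL2), beside 28.1%. ACTL6A and BRG1 were together at the TSS of 5 genes (all genes, 36.8%), and BRG1 was there with no ACTL6A peak in the other 5, which were TEAD1, TEAD3, CCN1, AMOTL2 and WWC1 (all genes, 26.7%). Of the 12512 genes with BRG1 at a TSS, 7251 also had ACTL6A there and 5261 did not, so this split was not particular to the pathway. All 3 antibodies had a peak at a TSS of YAP1, WWTR1 and TEAD2, a class that held 22.1% of all genes. The count for ACTL6A depended on which starts were used. With the MANE Select TSS alone, the start of the single transcript that both major annotations use as the default, WWTR1 and CCN2 remained and the count was 2.

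The regions differed in length, and longer regions have room for more peaks. Their median was 72.4 kb, against 47.3 kb for all protein-coding genes, with CCN2 (23.2 kb) and CCN1 (23.8 kb) the shortest and TEAD1 (290.3 kb) the longest. Per 100 kb, the 10 regions together held 5.06 BRG1 peaks, 1.57 ACTL6A peaks and 0.523 NRF2 peaks, and the merged regions of all protein-coding genes held 2.50, 1.12 and 0.425. By this measure TEAD3 had the highest BRG1 density (16.1 per 100 kb, 7 peaks) and WWTR1 the lowest (2.51 per 100 kb, 6 peaks). For ACTL6A the densest were CCN2 (8.62 per 100 kb, 2 peaks) and TEAD3 (6.90 per 100 kb, 3 peaks).

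**Figure D2:**
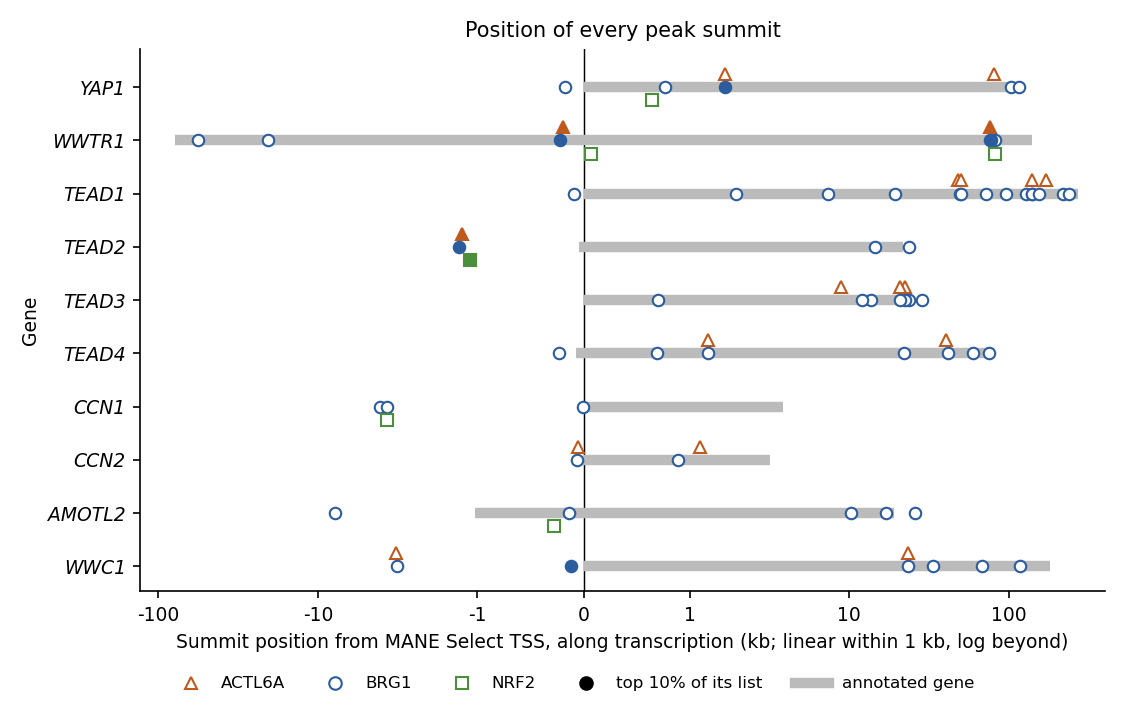
Position of each peak summit from the MANE Select TSS of its gene in kb along the direction of transcription (linear within 1 kb, logarithmic beyond), for ACTL6A (triangles), BRG1 (circles) and NRF2 (squares); filled symbols rank in the top 10% of their own list and grey bars are the annotated genes. Filled symbols of ACTL6A and BRG1 fell at the WWTR1 TSS, in WWTR1 near 75.9 kb and upstream of TEAD2, and BRG1 had further ones in YAP1 and at the WWC1 TSS.

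Of the coactivators, YAP1 (chr11:102110447-102233424, plus strand) held 5 BRG1 peaks, 2 ACTL6A peaks and 1 NRF2 peak. The BRG1 peak nearest the MANE Select TSS had its summit 173 bp upstream of it, with 19 fragments and rank 16930 in its list. A second BRG1 peak lay 765 bp downstream with 20 fragments (rank 15566), overlapping the NRF2 peak, whose summit was in coding exon 1, 645 bp downstream, with 15 fragments (rank 5301). The best-ranked BRG1 peak of the gene was neither of these: it lay in intron 1, 1666 bp downstream, with 37 fragments and rank 4204, in the top 8.62% of the list. The ACTL6A peak there had its summit 9 bp from that of BRG1, with 10 fragments, a fold enrichment of 6.40 and rank 5552. This ACTL6A peak was also the one nearest the MANE Select TSS, so the bases around the start itself held BRG1 and no ACTL6A peak. The remaining YAP1 peaks were far into the gene and weak, with 3 fragments for ACTL6A in intron 4 and 3 and 5 for BRG1 in introns 6 and 7.

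The intron 1 peak of BRG1 in YAP1 is printed whole from hg38, plus strand. It was chosen as one of the best-ranked BRG1 peaks over these genes with AP-1 letters, so finding those letters in it is no result. Its summit nearly coincided with that of the ACTL6A peak, which also shared 9 bp with the BRG1 peak 765 bp downstream of the TSS. Capitals mark the AP-1 letters TGANTCA on either strand, and the peak has no CATTCC. AP-1 factors are often found beside TEAD factors at enhancers.
YAP1 intron 1, BRG1 peak, chr11:102111954-102112187: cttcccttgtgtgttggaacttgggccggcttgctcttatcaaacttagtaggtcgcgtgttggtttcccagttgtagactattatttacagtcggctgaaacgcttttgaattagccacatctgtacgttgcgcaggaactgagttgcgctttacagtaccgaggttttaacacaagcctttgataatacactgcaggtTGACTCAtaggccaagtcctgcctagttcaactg

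WWTR1 (chr3:149517235-149736714, minus strand) had the best-ranked sites of the coactivators in the ACTL6A list. At its MANE Select TSS the ACTL6A summit lay 194 bp upstream with 22 fragments and a fold enrichment of 11.5 (rank 820, top 3.43%). The BRG1 summit was 26 bp from it, 220 bp upstream of the TSS, with 50 fragments and a fold enrichment of 11.4 (rank 2291, top 4.70%). NRF2 also had a peak over the same start, with its summit in the 5′ UTR 70 bp downstream, 14 fragments and rank 5831 (top 64.5% of its own list). All 3 summits also lay within WWTR1-AS1, an antisense gene, so the peaks cannot be assigned to WWTR1 alone.

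The other WWTR1 site was 75.9 kb downstream of the TSS in intron 2. ACTL6A had 17 fragments there (fold enrichment 10.4, rank 1439) and BRG1 47 fragments (fold enrichment 12.3, rank 2289), with summits 35 bp apart and no NRF2 peak. The BRG1 ranks of the TSS site and of this intronic site, 2291 and 2289, were thus almost the same. NRF2 had its best-ranked WWTR1 peak at another position, 81.8 kb downstream beside an alternative WWTR1 start, with 18 fragments (rank 2529). A BRG1 peak of 17 fragments (rank 16999) overlapped it, and ACTL6A had no peak there.

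These 2 WWTR1 sites are printed from hg38, plus strand, as the best-ranked ACTL6A peaks over the pathway with TEAD or AP-1 letters that are not shared with a neighbouring protein-coding gene's start. Up to 300 bases of each peak are shown, leaving out bases annotated as UTR, with CATTCC or TGANTCA (either strand) in capitals. The TSS site has 1 match to CATTCC and the intronic site has 3 matches to TGANTCA, none of the other kind in either.
WWTR1 TSS, ACTL6A peak, chr3:149658044-149658343: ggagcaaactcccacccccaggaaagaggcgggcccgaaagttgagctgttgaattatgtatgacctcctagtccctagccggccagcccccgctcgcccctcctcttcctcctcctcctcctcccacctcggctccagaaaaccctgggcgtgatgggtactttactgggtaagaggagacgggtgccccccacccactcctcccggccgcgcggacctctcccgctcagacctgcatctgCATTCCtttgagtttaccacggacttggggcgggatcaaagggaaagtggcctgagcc
WWTR1 intron 2, ACTL6A peak, chr3:149581875-149582174: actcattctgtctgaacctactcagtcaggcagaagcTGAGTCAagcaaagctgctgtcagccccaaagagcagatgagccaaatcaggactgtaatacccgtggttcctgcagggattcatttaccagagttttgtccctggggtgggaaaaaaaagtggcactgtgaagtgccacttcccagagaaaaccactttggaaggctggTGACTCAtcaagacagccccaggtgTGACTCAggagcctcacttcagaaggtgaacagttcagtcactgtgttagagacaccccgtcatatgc

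The DNA-binding partners fell into different groups. TEAD2 (chr19:49340595-49362457, minus strand) had the highest-ranked peaks of the pathway in all 3 lists: rank 49 for BRG1 (140 fragments, fold enrichment 20.1), rank 81 for ACTL6A (54 fragments, fold enrichment 17.7) and rank 454 for NRF2 (52 fragments, fold enrichment 7.73). The summits lay 1300, 1255 and 1119 bp upstream of the MANE Select TSS, and the peaks counted as at a TSS by a small margin, since their nearest edges were 941, 968 and 939 bp from a TEAD2 start. They were far closer to a start of DKKL1, the neighbour on the other strand. The BRG1 summit was 14 bp, the ACTL6A summit 59 bp and the NRF2 summit 195 bp from a DKKL1 TSS. An alternative added after the values were seen left out peaks that lay within 1 kb of another protein-coding gene's start and had their summit nearer to it than to a start of their own gene. TEAD2 then had no ACTL6A and no NRF2 peak, and 2 BRG1 peaks of 9 fragments each remained.

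The TEAD2 and DKKL1 site is printed from hg38, plus strand, because it ranked highest among the peaks over these genes with TEAD letters. Again up to 300 bases of the BRG1 peak outside annotated UTRs are shown. The capitals mark GGAATG, which is CATTCC on the other strand, 20 bp from the BRG1 summit.
TEAD2 upstream, BRG1 peak, chr19:49363430-49363729: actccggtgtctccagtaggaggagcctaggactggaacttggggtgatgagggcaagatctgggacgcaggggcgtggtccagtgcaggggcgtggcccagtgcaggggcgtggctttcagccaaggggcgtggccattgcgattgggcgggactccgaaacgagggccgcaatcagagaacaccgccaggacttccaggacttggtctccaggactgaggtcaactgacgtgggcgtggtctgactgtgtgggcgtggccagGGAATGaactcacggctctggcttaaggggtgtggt

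TEAD1 (chr11:12674421-12944737, plus strand) was the longest gene and held 14 BRG1 and 4 ACTL6A peaks, with no NRF2 peak. Its BRG1 peak at the TSS had the summit 88 bp upstream, 22 fragments and rank 9644, and the nearest ACTL6A peak was 47.9 kb downstream of that start. The best-ranked BRG1 peak of the gene was in intron 2, 19.4 kb downstream, with 30 fragments (rank 5115), and had no ACTL6A partner. ACTL6A and BRG1 overlapped at 2 sites, 50.3 kb downstream with 6 and 15 fragments, and 140.3 kb downstream with 10 and 26 fragments. The other 2 ACTL6A peaks had 5 and 3 fragments and ranked in the last 5% of the list.

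TEAD4 (chr12:2959330-3040676, plus strand) held 7 BRG1 and 2 ACTL6A peaks. BRG1 had 3 peaks around the start, 236 bp upstream (21 fragments), 692 bp downstream (22 fragments) and 1305 bp downstream in intron 2 (30 fragments, rank 8004). ACTL6A overlapped the last of these, with 9 fragments (rank 6227) and its summit 3 bp from that of BRG1, the closest pair in the pathway. As in YAP1, ACTL6A therefore met the BRG1 peak with the most fragments near the start, more than 1 kb into the gene, and not the one next to the MANE Select TSS.

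TEAD3 (chr6:35473597-35497079, minus strand) had 7 BRG1 and 3 ACTL6A peaks, none of them in the top 10% of its list. The BRG1 peak at its TSS had the summit 704 bp downstream with 16 fragments and rank 24083, the lowest rank among the best TSS peaks of the 10 genes. Its best-ranked BRG1 peak (29 fragments, rank 7895) lay in the downstream flank, 65 bp from a start of RPL10A, a ribosomal protein gene. The ACTL6A peaks of TEAD3 had 6 to 8 fragments and ranked 12848, 16876 and 23445, with 2 of them over BRG1 peaks in the 3′ UTR and in intron 9.

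Among the targets, CCN2, which encodes a matricellular growth factor, was the only one with ACTL6A peaks among the 3 (chr6:131948176-131951372, minus strand). BRG1 had a peak with its summit 63 bp upstream of the TSS, 23 fragments and rank 7268. ACTL6A had one 52 bp upstream, 11 bp from the BRG1 summit, with 7 fragments and rank 8372. A second pair lay in the gene, with the BRG1 summit in coding exon 3, 886 bp downstream (15 fragments), and the ACTL6A summit in intron 3, 1163 bp downstream (6 fragments). The gene lies within LINC01013, a non-coding RNA gene, which the peaks overlapped as well.

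CCN1, a matricellular protein of the same family (chr1:85580761-85584589, plus strand), had a BRG1 peak over its TSS with the summit 2 bp upstream, 32 fragments and rank 10720, and no ACTL6A peak in the region. NRF2 had 1 peak 3707 bp upstream with 19 fragments (rank 6246), which touched 2 BRG1 peaks of 27 and 22 fragments. These 3 peaks lay inside DDAH1, the neighbouring gene, with summits 1264 to 1702 bp from a DDAH1 start. AMOTL2, an angiomotin family member that binds YAP (chr3:134355347-134375479, minus strand), had a BRG1 peak 137 bp upstream of the MANE Select TSS with 36 fragments (rank 5669) and an NRF2 peak 282 bp upstream with 16 fragments (rank 8217, in the last 10% of its list). Its 4 other BRG1 peaks had 5 to 18 fragments.

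The TSS peaks of CCN2 and AMOTL2 are printed from hg38, plus strand, because both genes are TEAD targets and both peaks carry TEAD letters, with bases annotated as UTR left out. Capitals mark CATTCC, or GGAATG for the other strand. The CCN2 stretch, which runs from the base next to the TSS to the end of the BRG1 peak, has 3 matches, 29, 38 and 103 bp from the BRG1 summit, and the AMOTL2 stretch has 1.
CCN2 TSS, BRG1 peak, chr6:131951373-131951541: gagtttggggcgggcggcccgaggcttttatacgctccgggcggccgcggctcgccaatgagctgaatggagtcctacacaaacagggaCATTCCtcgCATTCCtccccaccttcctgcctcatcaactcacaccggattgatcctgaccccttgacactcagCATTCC
AMOTL2 TSS, BRG1 peak, chr3:134374448-134374747: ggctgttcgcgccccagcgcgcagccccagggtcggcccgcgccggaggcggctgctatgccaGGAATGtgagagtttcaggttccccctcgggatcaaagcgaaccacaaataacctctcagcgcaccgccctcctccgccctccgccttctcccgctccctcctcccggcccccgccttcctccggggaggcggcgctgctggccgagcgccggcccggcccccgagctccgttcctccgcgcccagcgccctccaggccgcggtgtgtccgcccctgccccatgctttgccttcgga

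WWC1, the upstream regulator (chr5:168291645-168472303, plus strand), had the best BRG1 rank at a TSS after TEAD2 and WWTR1. The summit lay 123 bp upstream with 38 fragments and a fold enrichment of 11.3 (rank 3710, top 7.60%). ACTL6A had no peak at the start. Of all BRG1 peaks at a TSS, 81.2% in the first 5000 ranks and 58.1% ranked 5001 to 10000 overlapped an ACTL6A peak. Over the 10 genes, 3 of 4 in the first 5000 ranks did. ACTL6A was found at 2 other places, both with BRG1: 3218 bp upstream with 8 fragments (BRG1 21), summits 21 bp apart, and 23.3 kb downstream in intron 1 with 6 fragments (BRG1 23), summits 52 bp apart. The BRG1 peak at 23.3 kb had a CATTCC 2 bp from its summit. Farther into WWC1, 3 BRG1 peaks had 4 fragments each, and NRF2 had no peak over the gene.

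The upstream part of the WWC1 TSS peak is printed from hg38, plus strand, as the best-ranked BRG1 start without an ACTL6A peak, and it has no match to CATTCC or TGANTCA and so no capitals.
WWC1 TSS, BRG1 peak, chr5:168291449-168291644: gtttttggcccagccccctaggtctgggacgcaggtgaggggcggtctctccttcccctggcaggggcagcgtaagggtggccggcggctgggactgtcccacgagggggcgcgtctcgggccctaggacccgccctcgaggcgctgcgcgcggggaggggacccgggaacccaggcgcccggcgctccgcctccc

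Where ACTL6A was found over these genes, BRG1 was usually found too. Of the 18 ACTL6A peaks, 13 overlapped a BRG1 peak (72.2%, Wilson 95% interval 49.1% to 87.5%), against 49.8% of all ACTL6A peaks, a value inside that interval. At a TSS it was 6 of 6 (all ACTL6A peaks at a TSS, 87.1%) and away from a TSS 7 of 12 (33.5% of all). These intervals cover counting error only and treat peaks as independent, which neighbouring peaks are not. When the shared bases had to make up 50% or more of each peak the share was 33.3%. With weaker peaks removed (−log10 q under 5) it was 100% of 6 peaks. No share over all ACTL6A peaks is given for these settings, so neither value is read as particular to these genes.

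In the other direction, 14 of the 58 BRG1 peaks overlapped an ACTL6A peak (24.1%, 15.0% to 36.5%), the same as the 24.1% of all BRG1 peaks. The share fell with BRG1 rank in the whole list and over the pathway. Among BRG1 peaks away from a TSS, 1 of 22 ranked beyond 20000 overlapped an ACTL6A peak, against 3 of 10 ranked 10001 to 20000 and 2 of 6 ranked 5001 to 10000. At a TSS, 3 of 4 in the first 5000 ranks and 2 of 9 ranked 10001 to 20000 did. All intervals of these small groups covered the shares of all BRG1 peaks of the same ranks. All 6 NRF2 peaks overlapped a BRG1 peak (all NRF2 peaks, 66.2%) and 3 overlapped an ACTL6A peak (49.8%). Most of these peaks were at a TSS. There, 5 of 5 overlapped a BRG1 peak (all NRF2 peaks at a TSS, 94.9%) and 3 of 5 an ACTL6A peak (70%).

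**Figure D3:**
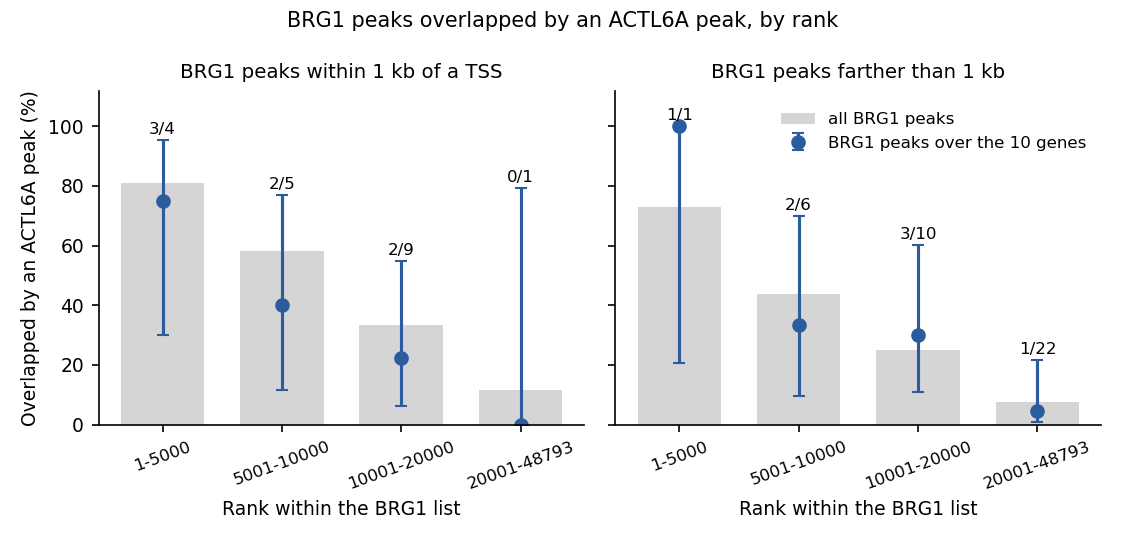
Share of BRG1 peaks overlapped by an ACTL6A peak in percent, by rank within the BRG1 list, for peaks within 1 kb of any protein-coding TSS (left) and farther away (right); grey bars are all BRG1 peaks, points are those over the 10 genes with Wilson 95% intervals, and the fractions give overlapped over total. The share fell from 3 of 4 in the first 5000 ranks to 0 of 1 beyond 20000 at a TSS, and the grey bars lie inside every interval.

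The 14 pairs of overlapping ACTL6A and BRG1 peaks were spread over 8 genes. Their summits were a median of 40 bp apart (3 to 892 bp), with 8 of 14 within 50 bp, beside a median of 65 bp and 42.0% within 50 bp over all 12033 pairs of the lists. BRG1 had 2.00 to 3.83 times as many fragments as ACTL6A at these sites, with a median of 2.69, against 2.42 over all pairs. The lowest ratio (2.00) belonged to a YAP1 pair that shared only 9 bp. The highest (3.83) was the intron 1 site of WWC1. The ratio reflects the depth and antibody of each library as well as binding, so it is read only as a range across sites. With NRF2, BRG1 formed 8 pairs with a median summit distance of 223.5 bp, of which 1 was within 50 bp.

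**Figure D4:**
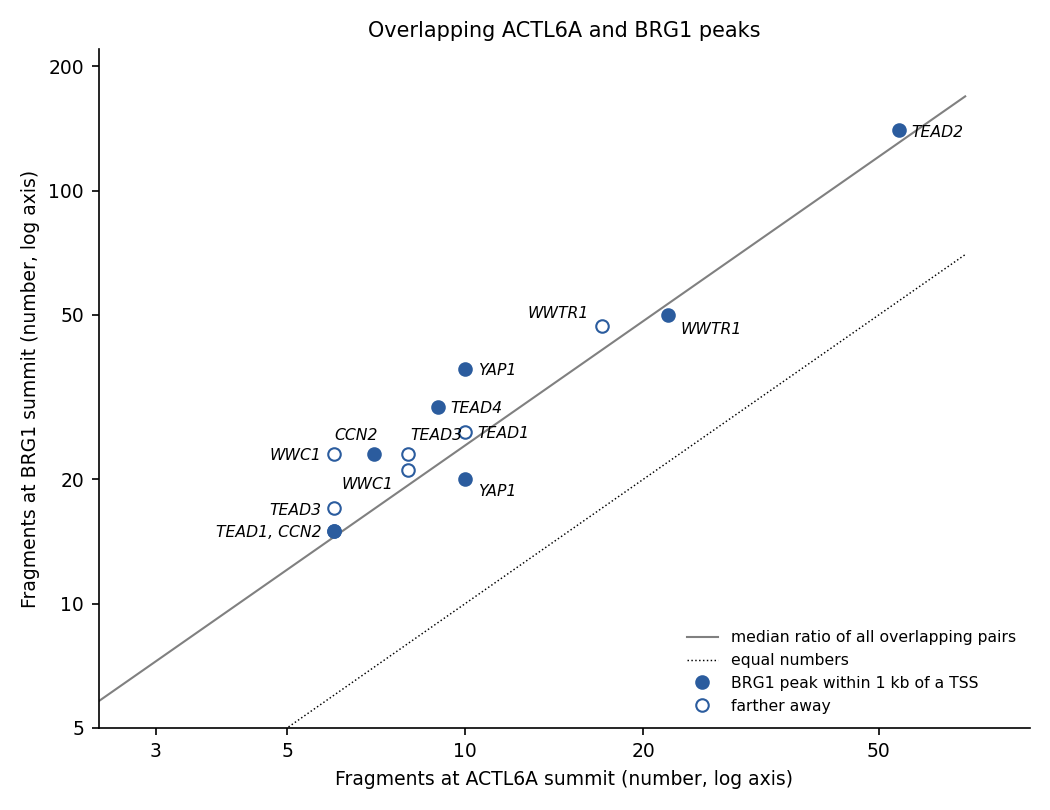
Fragments at the summits of the 14 overlapping pairs, ACTL6A on the x axis and BRG1 on the y axis (both logarithmic); filled points are BRG1 peaks within 1 kb of a TSS of the gene, open points are farther away, and a TEAD1 and a CCN2 pair coincide at 6 and 15. The grey line is the median ratio of all pairs in the lists (2.42), and all points lie above the dotted line of equal numbers.

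The TEAD letters were frequent around the BRG1 summits at a TSS. CATTCC was searched on both strands in 200 bp around each summit and was found in 12 of 58 BRG1 windows (20.7%, Wilson 95% interval 12.3% to 32.8%), against 10.7% of all BRG1 windows. In ACTL6A windows it was found in 4 of 18 (22.2%, 9.0% to 45.2%), against 10.9% of all, a value inside the interval. The ACTL6A count at a TSS was 3 of 6 (50%, 18.8% to 81.2%). Of all ACTL6A peaks at a TSS 8.998% had it, a value below that interval, though 6 windows are few. Away from a TSS the ACTL6A count was 1 of 12 (8.33%), against 11.7% of all. At a TSS of any gene the BRG1 count was 6 of 19 (31.6%, 15.4% to 54.0%), against 7.25% of all BRG1 peaks at a TSS. Away from a TSS, CATTCC was found in 6 of 39 BRG1 windows (15.4%, 7.2% to 29.7%). Of all BRG1 peaks away from a TSS 12.3% had it, a value inside that interval. In windows 1 kb to each side of the 58 summits it was found in 8 of 116, and in 10.4% of such windows of all peaks. Over whole BRG1 peaks at a TSS, 8 of 19 held a match (42.1%, against 15.8% of all BRG1 peaks at a TSS), and peak widths were not held equal in this comparison. These 8 peaks belonged to 8 of the 10 genes and held 14 matches, among them 3 each in CCN2, TEAD1 and TEAD4, and the genes without were TEAD3 and WWC1. The TEAD2 peak among them is the one with its summit 14 bp from a DKKL1 TSS. That site is also among the TSS windows with a match of BRG1 and of ACTL6A. The longer letters ACATTCC lowered the share of BRG1 windows to 10.3%, against 2.77% of all. The genes were chosen for a pathway that works through TEAD, and a match is a run of letters, not a bound site.

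For the other letters, the share in each list lay inside the Wilson 95% interval of the peaks over these genes. TGANTCA was found in 6 of 58 BRG1 windows (10.3%, against 13.2% of all) and in 2 of 18 ACTL6A windows (11.1%, against 8.04%). The core of the antioxidant response element, the sequence that NRF2 is known to bind, was searched as TGACNNNGC on both strands. It was found in 3 of 58 BRG1 windows (5.17%, against 11.5%), in 2 of 18 ACTL6A windows (11.1%, against 9.88%) and in 0 of 6 NRF2 windows, against 9.66% of all NRF2 windows. CATTCC was likewise in 0 of 6 NRF2 windows, and 3 windows of 6, taken as the limit that a count of 0 allows, would be a share of 50% (the Wilson interval ends at 39.0%). One run of letters can match both TGANTCA and TGACNNNGC, as it did once in the WWTR1 intron 2 site. Over whole peaks, 3 of 6 NRF2 peaks held TGACNNNGC, 1 each at WWTR1, TEAD2 and AMOTL2, against 22.7% of all NRF2 peaks. Widths were not held equal here, with a median of 633.5 bp for these 6 peaks and 474 bp for all NRF2 peaks. The peak upstream of TEAD2 held 3 matches, 218, 233 and 286 bp from its summit.

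Base composition separated the BRG1 peaks over these genes by place. Those at a TSS of their gene had a median GC content of 68.1% and an observed to expected CpG ratio of 0.804. Those farther away had 56.4% and 0.237. For ACTL6A the medians were 59.1% and 0.618 at a TSS, and 56.8% and 0.233 farther away, so its GC content differed little by place. No medians over all peaks of the lists are set beside these, so they are not read as particular to these genes.

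The wider pathway was described with 2 lists written from general knowledge. Of 19 Hippo kinases and regulators, 17 had a BRG1 peak at a TSS, 13 an ACTL6A peak and 8 an NRF2 peak (89.5%, 68.4% and 42.1%, beside the 63.5%, 38.5% and 28.1% of all genes). All 3 antibodies had a peak at the TSS of 6 of the 19, beside 22.1% of all genes. Of these 6, the 5 with the best ACTL6A ranks were STK3 (MST2, a core kinase; rank 389), NF2 (merlin, a scaffold; rank 1002), TAOK1 (rank 1499) and TAOK3 (rank 3160), kinases that act on the core kinases, and MOB1A (a coactivator of the LATS kinases; rank 5070). STK3 had 27 ACTL6A, 74 BRG1 and 34 NRF2 fragments at its start, more than any YAP1 or WWTR1 start in each list. Of 17 YAP and TAZ targets other than CCN1, CCN2 and AMOTL2, 11 had a BRG1 peak at a TSS, 7 an ACTL6A peak and 2 an NRF2 peak (64.7%, 41.2% and 11.8%). The 2 of 17 targets with all 3 (22.1% of all genes) were AXL, a receptor tyrosine kinase (ACTL6A rank 2083), and F3, tissue factor (ACTL6A rank 2950). No peak of any antibody lay over IGFBP3 or CCDC80, and every Hippo regulator had at least 1 peak. BRG1 peaks lay over 18 of the 19 regulators and 15 of the 17 targets, beside 82.7% of all genes. Region lengths were not held equal in these counts. The kinases and regulators thus had ACTL6A at the TSS in a larger share than the targets, a difference that was not tested.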

How the data were processed

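Peak lists of 5 CUT&Tag libraries from SNU638 cells were analysed, taking groups from the labels. Per the study's methods and the submitters' processing notes, the authors removed low-quality reads (the notes name fastp 0.23.0), aligned the remainder to hg38 using BWA, and ran MACS2 with a q-value cutoff of 0.05. The control given to the caller is not given in the sources used here. Each deposited list holds a score, a fold enrichment (a ratio of observed to expected fragments), a −log10 p-value and a −log10 q-value per peak. Lists were made per library, and the authors deposited no counts, so depth is known only as fragments per summit.

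From these values the fragments at a summit were recovered as the whole number giving both fold enrichment and p-value within 0.001, and such a number existed for 99.6% or more of every list. Positions were set against GENCODE release 44. Peaks up to 1 kb from the start of a protein-coding transcript were taken as TSS peaks, 1 shared bp made an overlap, and summit distances refer to the MANE Select transcript. Shares have Wilson 95% intervals. No test was made, since each antibody had 1 library.

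The genes, lists and rules were chosen with earlier results of these data known. All 10 genes are named; of the wider lists, the genes with all 3 antibodies at a TSS (at most 5 per list, by ACTL6A rank) and those without a peak. Sequences come from hg38. For TEAD1, TEAD4 and CCN1 none is printed. The routines were tested on simulated data. Alternatives dropped peaks with a −log10 q under 5, peaks beyond rank 5000 or peaks that overlap IgG, or used other flanks, TSS distances, overlaps and motif letters. One added after seeing the data left out peaks within 1 kb of another protein-coding gene's start whose summit was nearer to it than to a start of the member. Scripts ran in Python 3.11.15 (SciPy 1.17.1, NumPy 2.4.6, pysam 0.24.0, pandas 2.3.3, matplotlib 3.10.9).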

Additional observations from a re-analysis of the deposited data

How the results depend on the processing

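Of 97 values under alternative settings, 73 stayed near the reported ones and 24 moved. The 73 include all values of the settings that left out IgG libraries or IgG peaks. Those values could not move, so the tally overstates stability. When peaks with a −log10 q under 5 were dropped, ACTL6A had 6 peaks over 5 genes in place of 18 over 8, NRF2 had 2 peaks over 2 genes (2 at a TSS), and 100% of the ACTL6A peaks overlapped a BRG1 peak. With the highest 5000 peaks of each list, ACTL6A had 4 peaks over 3 genes (2 at a TSS), BRG1 5 peaks over 4 genes (4 at a TSS) and NRF2 2 peaks over 2 genes (2 at a TSS), and 60% of the BRG1 peaks overlapped an ACTL6A peak. The overlap shares under these settings have no share over all peaks beside them. In the whole list, BRG1 peaks of better rank overlapped an ACTL6A peak more often. TEAD2 kept a peak of all 3 antibodies at a TSS under both settings. At WWTR1 the NRF2 peak over the main start was lost under both, and the one that remained is beside the alternative start, where ACTL6A has none.

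Without flanks NRF2 peaks lay over 3 genes, and with 50 kb flanks ACTL6A had 31 peaks over all 10 genes. ACTL6A was at a TSS in 2 genes both within 250 bp and with MANE Select starts alone. An overlap of 50% of both peaks gave 33.3% of ACTL6A and 10.3% of BRG1 peaks, again with no share over all peaks beside them. The letters ACATTCC gave 10.3% of BRG1 windows, and whole peaks gave CATTCC in 66.7% of the 6 NRF2 peaks, against 23.3% of all NRF2 peaks. Peak widths were not held equal in this comparison, and the 6 NRF2 peaks had a larger median width than the list. Leaving out peaks within 1 kb of another gene's start, with the summit nearer to it than to their own, gave 17 ACTL6A, 55 BRG1 and 5 NRF2 peaks, with 4, 9 and 3 genes at a TSS. Leaving out peaks that overlap an IgG peak, of either library or both, changed no value, because none of these peaks does. This says nothing about stability between replicates of an antibody, which these lists cannot show. No paired analysis was possible because ACTL6A, BRG1 and NRF2 were profiled once each. Peaks of 3 to 6 fragments, common for ACTL6A, are at the limit of what the depth can show, and a gene without a peak is not shown to be unbound.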

Other observations

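A site with all 3 antibodies and, after TEAD2, the best BRG1 rank near a pathway gene lay outside the regions counted above. At 26.6 kb downstream of the CCN1 TSS, at chr1:85607000-85607570 in the BRG1 list, the summits of BRG1, ACTL6A and NRF2 fell on the same base. BRG1 had 109 fragments there with rank 106 in its list (fold enrichment 20.7), ACTL6A had 19 fragments with rank 1224, and NRF2 had 17 fragments with rank 3924. The site is in no annotated protein-coding gene, CCN1 has the nearest protein-coding TSS, and the 200 bp around the summit hold 1 match to CATTCC. The region of CCN1 with 10 kb to each side thus held no ACTL6A peak, while the stretch from 10 to 50 kb held 2. It was singled out after its values were seen.

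A site with ACTL6A and BRG1 lay past the 3′ end of YAP1, 158.3 kb downstream of the TSS and within 50 kb of the gene. The nearest protein-coding TSS was that of BIRC3, 48.8 kb from the ACTL6A summit. ACTL6A had 16 fragments there (rank 1813) and BRG1 37 (rank 2735), and NRF2 had no peak. Both ranks were better than those of any peak over YAP1 itself. Between 10 and 50 kb from the 10 genes, neither IgG library had a peak. A gene's nearest peak is not shown to act on that gene.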
